A study of Mus musculus with 6 samples.

Results

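The Cyp4 fatty acid omega-hydroxylases of mouse liver are described here through 10 genes chosen by name: Cyp4a10, Cyp4a12a, Cyp4a12b, Cyp4a14, Cyp4a31, Cyp4a32, Cyp4f13, Cyp4f14, Cyp4f15 and Cyp4v3. All 10 were found by gene name among the 24034 genes of the deposited liver table, and all 10 were among the 13250 genes tested. RNA was sequenced from liver of 25-week-old C57BL/6 mice, with 3 libraries (HO) of the genotype lncenc13A/3A and 3 libraries (WT) of the genotype lncenc1wt/wt. HO was taken as the homozygous knockout of Lncenc1, a long non-coding RNA, because the submitters describe knockout and wild-type livers. The comparison asked how the adult liver differed in the knockout. What the allele changes, the substrain, and whether each library came from its own animal are not given in the sources used here. Mutation and genetic background cannot be told apart, and p-values measure the spread between these libraries. The genotypes are as labelled, and Lncenc1 RNA was not analysed here.

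Enzymes of the Cyp4 family are microsomal P450s that hydroxylate fatty acids at or next to the methyl end, the omega carbon. The product is oxidised to a dicarboxylic acid, which peroxisomes then shorten. In mouse liver Cyp4a10 and Cyp4a14 are classic targets of PPARA, the nuclear receptor activated by fatty acids in fasting, whereas Cyp4a12a and Cyp4a12b are the copies with male-biased expression that depends on growth hormone and androgens.

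The libraries were alike in total signal, with FPKM (fragments scaled for transcript length and library size) summing to 495570 to 518218. Relative depth, read from the spacing of low values, was estimated at 19.9 to 24.6 M read equivalents in HO and 19.1 to 23.5 M in WT. Each library had a male pattern, with Xist at or under 0.0522 FPKM and the Y-linked Ddx3y at or above 16.7 FPKM, so the male-biased Cyp4a12 genes were read in 1 sex. Hepatocyte markers, 7 of 7 in the table, summed to 41402 to 45313 FPKM in HO and 46256 to 49662 FPKM in WT, lower in every HO library. Alb was the largest part of that sum, averaging 27996 FPKM in HO and 32400 FPKM in WT. The single markers went both ways: 3 were lower in all HO libraries, and 2, Cps1 and Apoa1, were higher in all of them. Cps1 passed as higher (limma adjusted p = 0.0422). The median log2 change of these markers was -0.02, against -0.09 over all tested genes, and their part in the differences was not tested. Of all tested genes 1.14% passed at 0.05, 43 higher and 108 lower in HO (limma, Benjamini-Hochberg). Median-of-ratios scaling gave 67 and 66. The number higher and lower depended on single libraries: leaving out an HO library gave 76 and 122 for replicate 1, 11 and 24 for replicate 2, and 3 and 12 for replicate 3. Leaving out a WT library gave 3 and 6 for replicate 1, 2 and 4 for replicate 2, and 91 and 171 for replicate 3.

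The 6 Cyp4a members lie within 322.6 kb of chromosome 4 (mm10), from 115299046 at the start of Cyp4a12a to 115621602 at the end of Cyp4a32. Along the chromosome they run in the order Cyp4a12a, Cyp4a12b, Cyp4a14, Cyp4a10, Cyp4a31 and Cyp4a32, and Cyp4a14 is the only one of the 6 on the minus strand. The Cyp4f members lie on chromosome 17, from 32685627 to 32703352 for Cyp4f15, 32905070 to 32917342 for Cyp4f14 and 32924688 to 32947402 for Cyp4f13. Cyp4v3 lies on chromosome 8 from 45304944 to 45333216, where its exons overlap those of Gm45753, so reads there could belong to either gene.

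How well a short read can be assigned to 1 copy differs between the members, and the stretches below show where the closest copies can be told apart. The coding sequences of Cyp4a12a and Cyp4a12b are 98.5% identical, differing at 23 of 1524 aligned bases, and share an unbroken run of 342 bases. The 60 coding bases in which these copies differ most lie in coding exon 6, at chr4:115326628-115326687 for Cyp4a12a and chr4:115432881-115432940 for Cyp4a12b (GRCm38, plus strand, coding bases 630 to 689). Capitals mark the 4 positions that differ:
Cyp4a12a: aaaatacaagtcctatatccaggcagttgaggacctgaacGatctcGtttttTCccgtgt
Cyp4a12b: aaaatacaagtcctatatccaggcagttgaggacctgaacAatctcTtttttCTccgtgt
Cyp4a10, Cyp4a31 and Cyp4a32 are 96.0% to 97.2% identical to each other. In the stretch that follows, most marked positions set Cyp4a32 apart, and few separate Cyp4a10 from Cyp4a31. Their most divergent 60 coding bases lie in exon 2 (coding bases 200 to 259, plus strand), at chr4:115519640-115519699 for Cyp4a10, chr4:115565020-115565079 for Cyp4a31 and chr4:115602270-115602329 for Cyp4a32, with capitals at the 9 positions that differ between any of the 3:
Cyp4a10: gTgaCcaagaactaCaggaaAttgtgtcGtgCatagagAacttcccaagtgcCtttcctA
Cyp4a31: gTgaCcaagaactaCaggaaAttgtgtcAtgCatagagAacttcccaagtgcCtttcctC
Cyp4a32: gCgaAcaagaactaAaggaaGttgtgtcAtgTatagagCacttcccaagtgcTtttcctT

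Of all 100-base windows in the annotated transcript, 35.8% of those of Cyp4a12a and 36.2% of those of Cyp4a12b occurred without a mismatch in another member. The share was 12.7% for Cyp4a10, 8.22% for Cyp4a31 and 20.1% for Cyp4a32. Cyp4a14 is at most 75.9% identical in coding sequence to any other member, and none of its windows, nor any of the Cyp4f members or Cyp4v3, was shared. For exact matches of 100 bases, the values of Cyp4a14, Cyp4f14 and Cyp4f15 therefore do not depend on how reads were split among the 10 members. Shorter reads could be shared, since Cyp4f15 has identical coding runs of 67 bases with Cyp4f14 and 71 bases with Cyp4f13. The split between the 2 Cyp4a12 genes, and that among Cyp4a10, Cyp4a31 and Cyp4a32, is uncertain.

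The Cyp4a members differed between the groups in both directions: Cyp4a14 and Cyp4a10 were lower in all HO libraries than in any WT library, and Cyp4a12a and Cyp4a12b were higher in all of them. None of the 10 members passed the test over all genes (limma with Benjamini-Hochberg adjustment). At an unadjusted p under 0.05 there were 6, with 4 higher in HO (Cyp4a12a, Cyp4a12b, Cyp4f14 and Cyp4v3) and 2 lower (Cyp4a14 and Cyp4a10), against 21.5% of all tested genes. The same 6 were those whose groups did not overlap, a separation seen in 27.9% of all tested genes, in 6.42% with HO above and in 21.4% with HO below. The median log2 change was 0.07 over the members and -0.09 over all tested genes. Of the members, Cyp4a10 and Cyp4a12b passed when WT replicate 3 was left out, and Cyp4a10, Cyp4a12a, Cyp4a12b and Cyp4a14 passed when libraries were weighted by their fit (limma array weights).

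**Figure D1:**
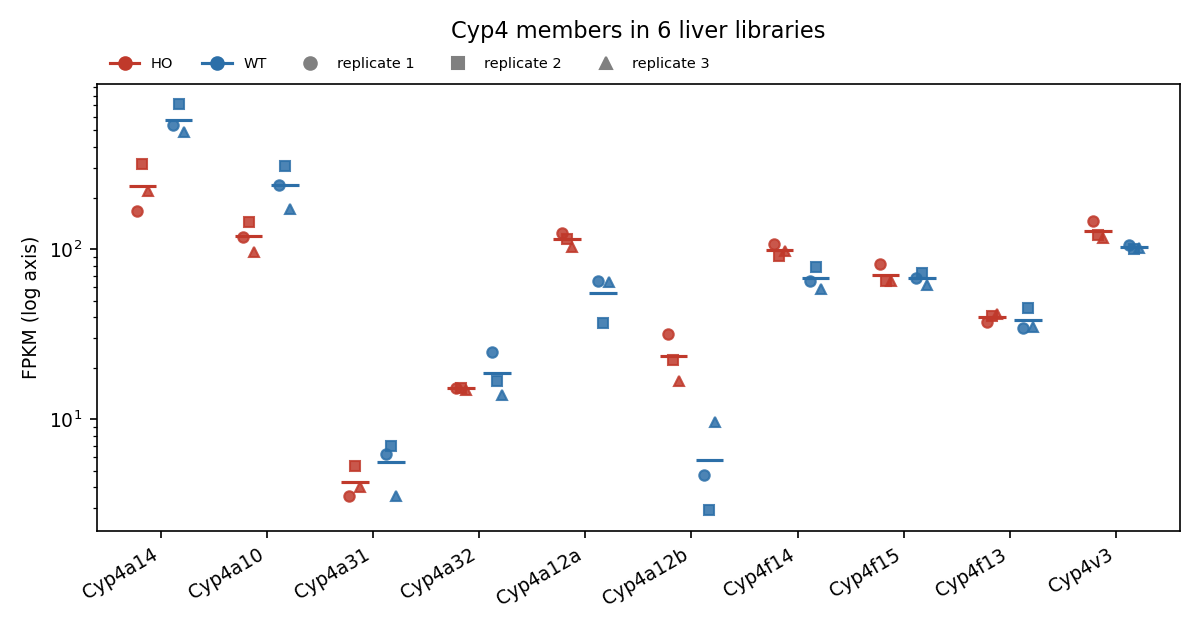
FPKM of the 10 Cyp4 members on a log axis, with HO (red) left of WT (blue), 1 point per library (symbol by replicate number) and a line at the mean of 3. Cyp4a14 and Cyp4a10 show every HO point under every WT point, Cyp4a12a and Cyp4a12b the opposite, and Cyp4f13, Cyp4f15, Cyp4a31 and Cyp4a32 show overlap.

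Cyp4a14, the most abundant member in both groups, had 167, 318 and 219 FPKM in HO replicates 1 to 3, against 538, 709.9 and 487 FPKM in WT replicates 1 to 3. The highest HO library lay below the lowest WT library. Its mean was 235 ± 76.7 FPKM in HO and 579 ± 117 FPKM in WT (SD, n = 3 each), a log2 change of -1.33 ± 0.25 (SE) on the log2(FPKM + 0.5) scale. The 95% interval ran from -1.91 to -0.75, and the adjusted p was 0.0571 (limma).

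Cyp4a10, which like Cyp4a14 is induced by fasting and by fibrate drugs, had 118, 145 and 95.9 FPKM in HO, against 237, 308 and 173 FPKM in WT. All HO libraries lay below all WT libraries. Its log2 change was -0.98 ± 0.23 (SE, 95% interval -1.52 to -0.44, limma adjusted p = 0.0852). Without WT replicate 3, which had the lowest WT value, it was -1.19 and passed (limma adjusted p = 0.0472).

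Cyp4a31, the other copy set down as PPARA-inducible, was low: 3.55, 5.32 and 4.01 FPKM in HO, against 6.24, 6.98 and 3.56 FPKM in WT. The groups overlapped, since WT replicate 3 lay within the HO values. Its log2 change of -0.31 ± 0.25 (SE, 95% interval -0.91 to 0.28, limma adjusted p = 0.510) had an interval on both sides of 0, which does not show that the gene was equal in the groups. Leaving out HO replicate 1 gave -0.20 and HO replicate 2 gave -0.46, while leaving out WT replicate 2 gave -0.14 and WT replicate 3 gave -0.58.

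Cyp4a32, next to Cyp4a31, had 15.3, 15.4 and 15.0 FPKM in HO, against 25.1, 16.8 and 14.0 FPKM in WT, again with overlap. Its log2 change was -0.24 ± 0.20 (SE, 95% interval -0.71 to 0.22, limma adjusted p = 0.515), which became -0.01 without WT replicate 1, its highest library, and -0.42 without WT replicate 3. The summed FPKM of Cyp4a10, Cyp4a31 and Cyp4a32 was 137, 165 and 115 in HO and 268, 332 and 190.5 in WT. The groups did not overlap in this sum, which averaged 0.527 times the WT mean in HO. The annotated exons of the 3 genes cover 2109, 2509 and 1536 bases, so a sum of FPKM still depends in part on how shared reads were split.

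Cyp4a12a is the main arachidonic acid omega-hydroxylase of the male mouse kidney, and its product acts on blood vessels. It had 125, 115 and 103 FPKM in HO, against 65.2, 36.9 and 64.4 FPKM in WT. Every HO library exceeded every WT library, and WT replicate 2 was the lowest of all. The log2 change was 1.08 ± 0.22 (SE, 95% interval 0.56 to 1.60, limma adjusted p = 0.0703).

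Cyp4a12b, its near-identical neighbour, was at 31.7, 22.4 and 16.8 FPKM in HO, against 4.73, 2.93 and 9.64 FPKM in WT. It had the largest log2 change of the 10 members, 2.04 ± 0.40 (SE, 95% interval 1.10 to 2.99, limma adjusted p = 0.0637). Without WT replicate 3, the highest WT library, the change was 2.46 and passed (limma adjusted p = 0.0247). The sum of both Cyp4a12 genes was 157, 138 and 120.2 FPKM in HO and 69.9, 39.9 and 74.1 FPKM in WT, again without overlap. Exons of the pair cover 2422 and 2395 bases, so the split of reads between them moves this sum little. Cyp4a12b supplied 20.2%, 16.3% and 14.0% of that sum in HO and 6.76%, 7.35% and 13.01% in WT.

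**Figure D2:**
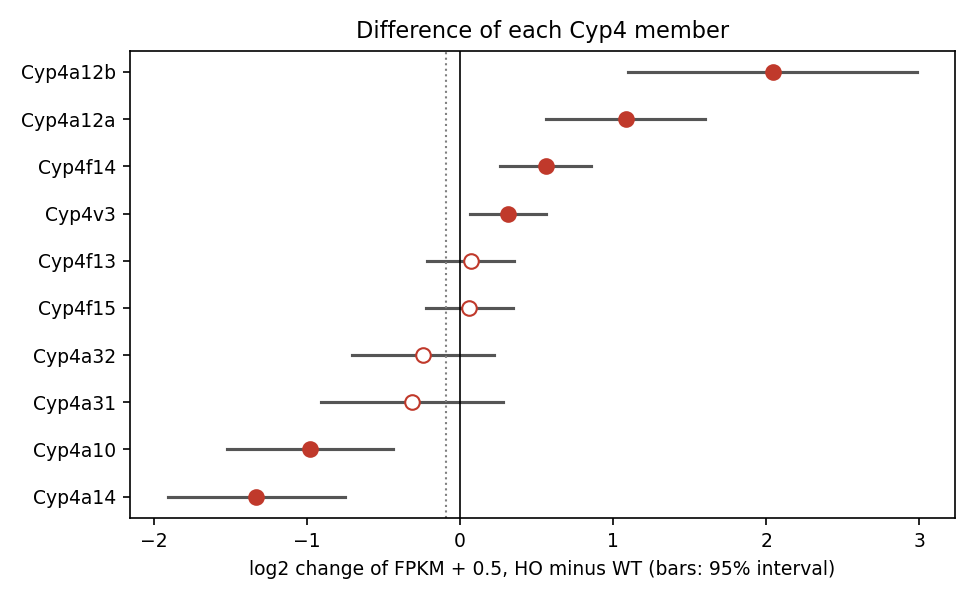
Log2 change of FPKM + 0.5 (HO minus WT) of each member with its 95% interval from limma; filled points mark members whose groups did not overlap, and the dotted line marks the median of all tested genes at -0.09. Points run from -1.33 for Cyp4a14 to 2.04 for Cyp4a12b, and none passed the adjusted threshold.

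Set beside each other in each library, the PPARA-inducible and the growth-hormone-dependent copies gave separate ranges in the groups. The sum of Cyp4a10, Cyp4a14 and Cyp4a31 was 288, 468 and 319 FPKM in HO, against 782, 1025 and 664 FPKM in WT. It exceeded the sum of the Cyp4a12 genes by 1.84, 3.40 and 2.65 times in HO, against 11.2, 25.7 and 8.96 times in WT. These ratios are descriptive, since the copies were chosen with results known. WT replicate 2 had the highest Cyp4a14, Cyp4a10 and Cyp4a31 and the lowest Cyp4a12a and Cyp4a12b of the WT libraries. Among the HO libraries, replicate 1 had the lowest Cyp4a14 and Cyp4a31 and the highest Cyp4a12a and Cyp4a12b, but Cyp4a10 was lowest in replicate 3. HO replicate 3 was below HO replicate 2 in all 5 of these copies, so no opposite order held among the HO libraries.

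The 6 Cyp4a members together came to 461, 621 and 454 FPKM in HO and 877, 1082 and 752 FPKM in WT, with no overlap. The Cyp4a12 genes made up 34.1%, 22.2% and 26.5% of this sum in HO and 7.97%, 3.69% and 9.85% in WT. Cyp4a14 made up 36.3%, 51.2% and 48.2% in HO and 61.4%, 65.6% and 64.8% in WT. Because FPKM is scaled for length, these are shares of length-scaled signal, not of reads.

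**Figure D3:**
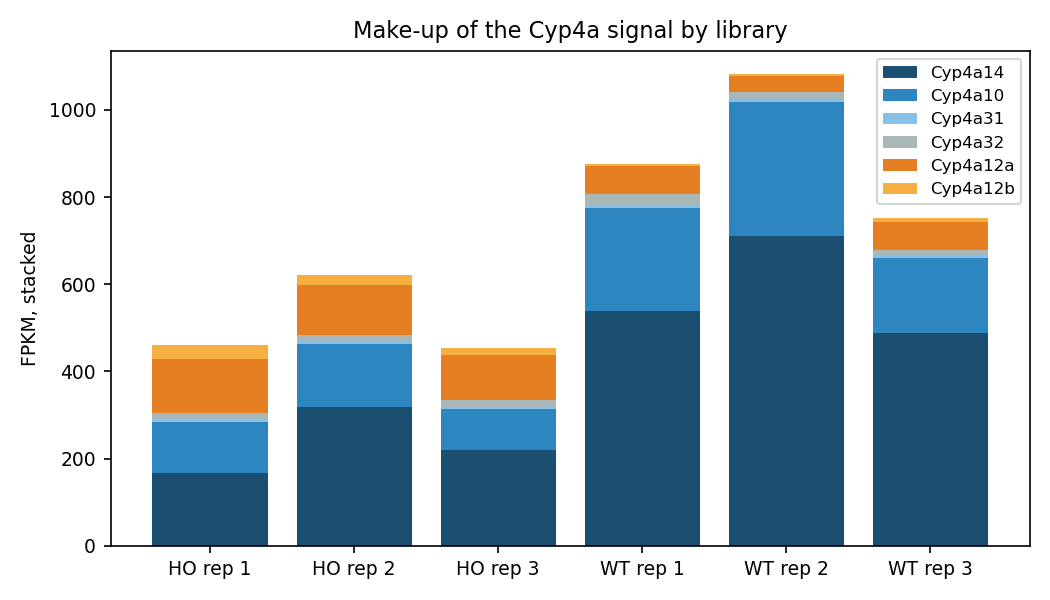
Stacked FPKM of the 6 Cyp4a members in each library, HO on the left and WT on the right. The blue part (Cyp4a14, Cyp4a10 and Cyp4a31) is shorter in all 3 HO libraries, the orange part (Cyp4a12a and Cyp4a12b) taller, and the total ranges from 454 to 621 FPKM in HO and from 752 to 1082 FPKM in WT.

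In WT the order of the means was Cyp4a14, Cyp4a10, Cyp4v3, Cyp4f15, Cyp4f14, Cyp4a12a, Cyp4f13, Cyp4a32, Cyp4a12b and Cyp4a31. Neighbours from Cyp4f15 to Cyp4f13, and Cyp4a12b with Cyp4a31, overlapped in their library values. In HO it was Cyp4a14, Cyp4v3, Cyp4a10, Cyp4a12a, Cyp4f14, Cyp4f15, Cyp4f13, Cyp4a12b, Cyp4a32 and Cyp4a31, with overlap between neighbours from Cyp4v3 to Cyp4f14. Cyp4a12a and Cyp4a10 thus overlapped in HO, while in WT every library of Cyp4a12a lay below every library of Cyp4a10.

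The Cyp4f members, which hydroxylate leukotriene B4 and other eicosanoids as well as fatty acids, separated the groups in 1 gene of 3. Cyp4f14, a leukotriene hydroxylase of mouse liver, had 108, 91.3 and 97.9 FPKM in HO, against 65.3, 78.4 and 58.5 FPKM in WT. All HO values lay above all WT values, with a log2 change of 0.56 ± 0.13 (SE, 95% interval 0.26 to 0.86, limma adjusted p = 0.0803). Cyp4f15 had 82.3, 65.1 and 64.7 FPKM in HO and 67.5, 73.0 and 62.0 FPKM in WT, with overlap and a log2 change of 0.06 ± 0.12 (SE, 95% interval -0.22 to 0.35, limma adjusted p = 0.808), which was -0.05 without HO replicate 1. Cyp4f13 had 37.3, 40.4 and 41.7 FPKM in HO and 34.5, 44.9 and 35.1 FPKM in WT, with a log2 change of 0.07 ± 0.12 (SE, 95% interval -0.22 to 0.35, limma adjusted p = 0.781). For both, these intervals do not hold a change as large as that fitted for Cyp4f14, but they overlap the interval of Cyp4f14. Whether the genes differed from each other in their change was not tested.

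Cyp4v3, the mouse counterpart of the human gene mutated in Bietti crystalline dystrophy of the retina, had 147, 121 and 116 FPKM in HO, against 106, 99.8 and 102 FPKM in WT. The HO libraries all lay above the WT libraries, by a small step: the log2 change was 0.32 ± 0.11 (SE, 95% interval 0.07 to 0.56, limma adjusted p = 0.155). Its WT mean was 102 ± 3.10 FPKM (SD, n = 3), the smallest SD relative to the mean among the 10 members in WT.

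Of 10 other Cyp4 genes looked for, 5 were in the table, and 3 were expressed highly enough to be tested. None of these 3 passed (limma adjusted p of 0.327 or more), and none had an unadjusted p under 0.05. Cyp4b1, which lies next to Cyp4a32 and hydroxylates shorter fatty acids and xenobiotics, had 4.66, 4.46 and 4.95 FPKM in HO, against 5.14, 5.44 and 5.72 FPKM in WT. Cyp4f17 averaged 7.47 ± 0.842 FPKM in HO and 6.81 ± 0.676 FPKM in WT, and Cyp4f16 1.11 ± 0.641 FPKM in HO and 1.00 ± 0.400 FPKM in WT (SD, n = 3 each). Cyp4f18, a neutrophil enzyme, and Cyp4f39 did not exceed 0.488 FPKM in any library.

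Within 500 kb on either side of the Cyp4a cluster 12 genes outside the family were tested. None passed (limma), and their log2 changes ran from -0.79, in the pseudogene Gm12854, to 0.16. At an unadjusted p under 0.05 there were 3, Cmpk1, Faah and Gm12854, a share near the 21.5% of all tested genes. Cmpk1, a nucleotide kinase, had a log2 change of -0.30, and Faah, a fatty acid amide hydrolase, one of -0.24. They are named here after their values were seen.

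**Figure D4:**
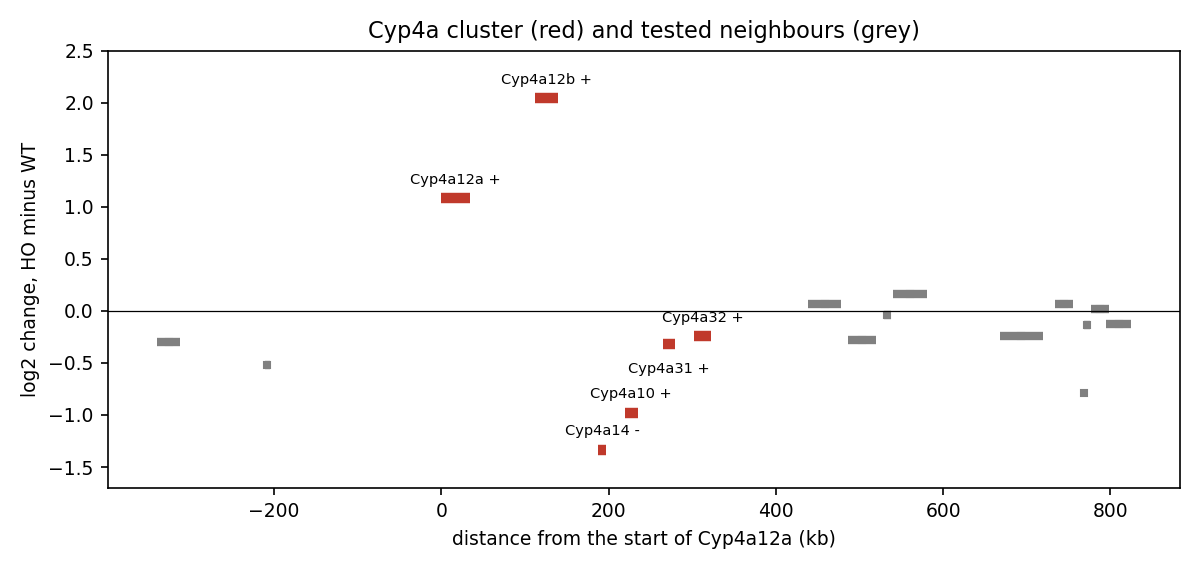
Log2 change (HO minus WT) against distance in kb from the start of Cyp4a12a, with a bar for each gene body, the Cyp4a members in red with their strand and the 12 tested neighbours in grey. Cyp4a12a and Cyp4a12b lie together at 1.08 and 2.04, Cyp4a14 and Cyp4a10 together at -1.33 and -0.98, and neighbours lie between -0.79 and 0.16.

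Genes known as PPARA targets outside the Cyp4 family were lower in HO where they changed. Of 56 tested, 8 fell (Acot3, Acot4, Acaa1b, Abcd2, Cd36, Me1, Acot2 and Gpd1) and none rose (limma adjusted p at or under 0.05), with 0.815% of all genes lower. The median log2 change was -0.42, against -0.09 over all genes. Cd36, a fatty acid transporter, averaged 19.5 ± 1.78 FPKM in HO and 48.9 ± 2.86 FPKM in WT, and the peroxisomal thiolase Acaa1b 462 ± 57.3 FPKM in HO and 1083 ± 112 FPKM in WT (SD, n = 3 each). The thioesterase Acot3 averaged 0.490 ± 0.275 FPKM in HO and 6.34 ± 1.34 FPKM in WT, and its neighbour Acot4 5.79 ± 1.77 FPKM in HO and 19.98 ± 0.785 FPKM in WT (SD, n = 3 each). With HO replicate 2 or HO replicate 3 left out 5 passed, and leaving out a WT library gave 2 for replicate 1, 1 for replicate 2 and 13 for replicate 3.

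PPARA itself and its partners did not pass the test. Of 18 tested genes none passed (limma), while at an unadjusted p under 0.05 there were 4 higher and 3 lower, against 21.5% of all genes in either direction. The median log2 change was 0.10. Ppara, named here for its role and not by rank, had 41.4, 45.0 and 50.8 FPKM in HO, against 35.9, 36.1 and 47.8 FPKM in WT, with overlap. Its log2 change was 0.20 ± 0.14 (SE, 95% interval -0.13 to 0.53, limma adjusted p = 0.442). The members with the smallest p were Fabp1, which carries fatty acids to the nucleus, at 5150 ± 276 FPKM in HO and 7227 ± 384 FPKM in WT, and Pparg at 3.51 ± 1.05 FPKM in HO and 7.10 ± 1.53 FPKM in WT (SD, n = 3 each). The coactivators Med1 and Ppargc1b had log2 changes of 0.72 and 0.60, which did not pass (limma adjusted p = 0.0940 and 0.115).

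Enzymes that work with the omega-hydroxylases or on their products had 2 of 20 past the threshold, Acot4 and Adh1, both lower (limma), against 0.815% of all genes lower, with a median log2 change of -0.21. Acot4 is also counted among the PPARA targets. Adh1, an alcohol dehydrogenase, averaged 875 ± 30.2 FPKM in HO and 1313 ± 51.5 FPKM in WT. Aldh3a2, the fatty aldehyde dehydrogenase of this pathway, averaged 185 ± 18.2 FPKM in HO and 290.3 ± 30.1 FPKM in WT (limma adjusted p = 0.0526), and Adh4 61.5 ± 8.67 FPKM in HO and 95.9 ± 7.76 FPKM in WT (limma adjusted p = 0.0635, SD, n = 3 each). Por, the reductase that passes electrons to all microsomal P450s and is named here for that role, had 137, 172 and 208 FPKM in HO, against 78.3, 78.0 and 124 FPKM in WT (log2 change 0.89 ± 0.22, SE, limma adjusted p = 0.0912). The number of these 20 genes past the threshold was 1 without HO replicate 2, 0 without HO replicate 3, WT replicate 1 or WT replicate 2, and 5 without WT replicate 3.

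Male-biased liver genes other than Cyp4a12a and Cyp4a12b had 8 of 31 higher in HO and 1 lower (limma), with 0.325% of all genes higher, and a median log2 change of 0.85. Selenbp2, a selenium-binding protein, averaged 803 ± 198 FPKM in HO and 67.0 ± 43.6 FPKM in WT, and the glucuronosyltransferase Ugt2b38 7.08 ± 1.19 FPKM in HO and 1.86 ± 0.626 FPKM in WT (SD, n = 3 each). Serpina1e averaged 7132 ± 651 FPKM in HO and 1265 ± 659 FPKM in WT, while the urinary protein gene Mup10, the 1 that fell, averaged 2.44 ± 3.75 FPKM in HO and 1925 ± 1242 FPKM in WT (SD, n = 3 each). The Mup, Serpina1 and Ugt2b families hold near-identical copies, among which the split of reads is uncertain. The count of 9 became 5 with HO replicate 1 left out, 1 with HO replicate 2 or HO replicate 3 left out, 0 without WT replicate 1 or WT replicate 2, and 15 without WT replicate 3. These lists and their direction were known from earlier results of these data and are no independent evidence.

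Of 14 tested female-biased genes 6 fell (Acot3, Slc22a27, Abcd2, Cyp2a22, Cyp2b9 and Cyp2a4) and none rose (limma), against 0.815% of all genes lower, with a median log2 change of -1.49. The list did not go 1 way: at an unadjusted p under 0.05 there were 9 lower and 3 higher, against 21.5% of all genes in either direction. The 3 higher were Cyp2c40, Cyp2b10 and Cyp17a1, with log2 changes of 1.53, 1.48 and 0.46, and every HO library above every WT library. Cyp2b9, a P450 higher in females, averaged 1.53 ± 0.436 FPKM in HO and 51.2 ± 34.6 FPKM in WT (SD, n = 3 each). Leaving out an HO library gave 1 for replicate 2 and 2 for replicate 3, and leaving out a WT library gave 1 for replicate 1 and 0 for replicate 2. Acot3 and Abcd2 are counted in this list and among the PPARA targets.

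Growth hormone signalling had none of 18 genes past the threshold (limma), with 2 higher and 2 lower at an unadjusted p under 0.05, near the share of 21.5% over all genes, and a median log2 change of 0.05. Without HO replicate 1, and likewise without WT replicate 3, 1 passed. The receptor gene Ghr, named for its role, had 192, 188 and 189 FPKM in HO, against 229, 169 and 216 FPKM in WT, and Stat5b, its main signal transducer, averaged 10.4 ± 2.59 FPKM in HO and 9.79 ± 1.16 FPKM in WT (SD, n = 3 each). Of the genes with the smallest p, the prolactin receptor gene Prlr averaged 13.02 ± 0.911 FPKM in HO and 25.5 ± 5.64 FPKM in WT (SD, n = 3 each, limma adjusted p = 0.0571), and Igfbp3, Egfr and Hnf4a had log2 changes of -0.73, 1.41 and 0.48.

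**Figure D5:**
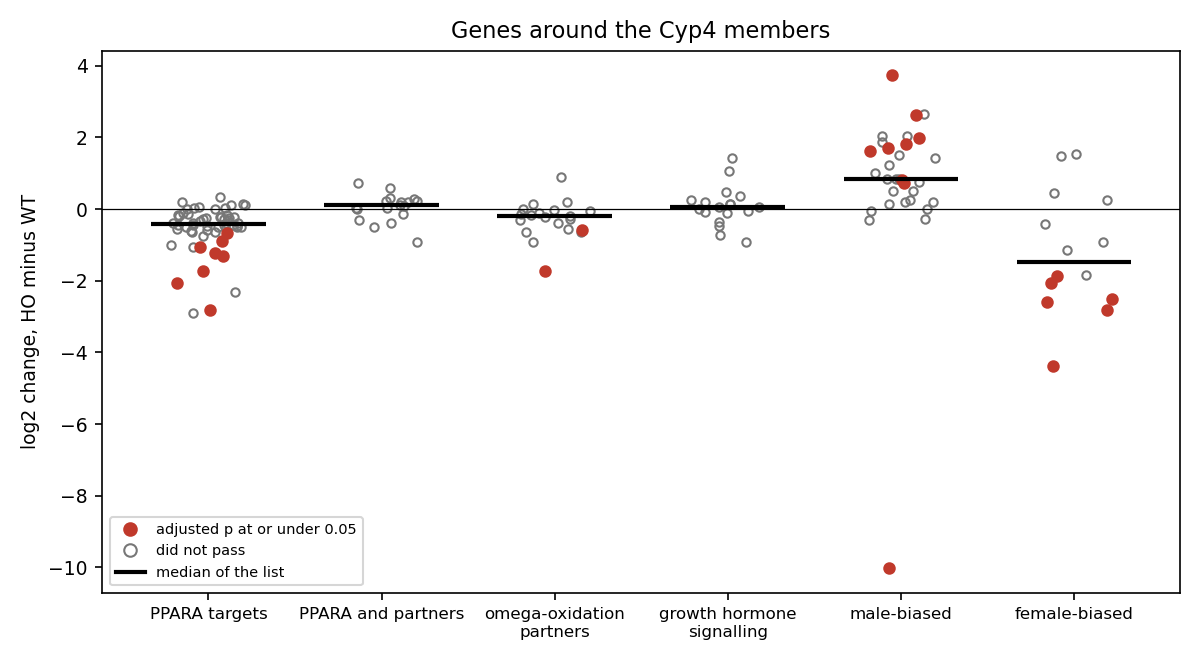
Log2 change (HO minus WT) of each tested gene in 6 lists around the Cyp4 members; red points passed the adjusted threshold, open points did not, black lines mark medians, and sideways scatter only separates points. The medians are -0.42 for PPARA targets, 0.10 for PPARA and partners, -0.21 for omega-oxidation partners, 0.05 for growth hormone signalling, 0.85 for male-biased and -1.49 for female-biased genes.

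P450 genes controlled by other nuclear receptors had 2 of 13 past the threshold, Cyp2b9 and Cyp3a11, both lower in HO (limma), against 0.815% of all genes lower, with a median log2 change of -0.44. At an unadjusted p under 0.05 there were 7 lower and 3 higher, against 21.5% of all genes in either direction. The 3 higher were Cyp2b10, Cyp3a13 and Cyp1a2, with log2 changes of 1.48, 0.70 and 0.47. Cyp2b9 and Cyp2b10 are also counted among the female-biased genes. Cyp3a11 averaged 222 ± 30.6 FPKM in HO and 444 ± 62.0 FPKM in WT (SD, n = 3 each), and its reads can be shared with other Cyp3a genes. None of these passed without HO replicate 2, HO replicate 3, WT replicate 1 or WT replicate 2, and 4 did without WT replicate 3. Cyp7a1, which starts bile acid synthesis, and Cyp3a25 had log2 changes of -2.10 and -0.68 and did not pass (limma adjusted p = 0.0526 and 0.0747).

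Of 28 acute phase genes 3 were higher in HO (Socs3, Il1r1 and Saa4, limma) and none lower, against 0.325% of all genes higher, with a median log2 change of 0.94. Saa1, an inflammatory plasma protein named here after its values were seen, was at 111, 2525 and 2630 FPKM in HO replicates 1 to 3, against 125, 65.6 and 162 FPKM in WT. HO replicate 1, with Saa1 within the WT range, had the lowest Cyp4a14 (167 FPKM) and the highest Cyp4a12a (125 FPKM) of the HO libraries. It was not at the WT level in all acute phase genes. Socs3 was at 24.3 FPKM in HO replicate 1, Il1r1 at 23.1 FPKM and Saa4 at 412 FPKM, each above every WT library. In 15 of the 28 genes every HO library lay above every WT library. A tie between acute phase genes and the Cyp4 members was not tested. Without HO replicate 1 the log2 change was -1.11 for Cyp4a14, -0.98 for Cyp4a10, 1.02 for Cyp4a12a and 1.81 for Cyp4a12b. The number of acute phase genes past the threshold was 16 with HO replicate 1 left out, 1 with HO replicate 2 left out, and 0 with HO replicate 3, WT replicate 1 or WT replicate 2 left out.

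Besides those of hepatocytes, summed markers of adipocytes and cholangiocytes, and the single kidney tubule marker found, differed between the groups without overlap. Adipocyte markers, 4 of 5 in the table, summed to 9.21 to 20.5 FPKM in HO and 52.4 to 64.7 FPKM in WT, with the defining Plin1 and Adipoq at 0 in all 6 libraries. That sum was Cfd and Fabp4 alone, and its difference came from Cfd. Cfd had 4.42, 0.986 and 12.2 FPKM in HO, against 49.5, 56.2 and 44.0 FPKM in WT. Fabp4 overlapped, at 10.2 ± 3.40 FPKM in HO and 9.48 ± 1.81 FPKM in WT (SD, n = 3 each). Cholangiocyte markers, 5 of 5, summed to 20.05 to 23.0 FPKM in HO and 24.2 to 27.6 FPKM in WT. Of the 4 of these that were tested, only 1 was lower in all HO libraries, none passed (limma), and Krt19 and Epcam overlapped. The kidney tubule marker Lrp2, 1 of 5 in the table, was at 0.0887 to 0.214 FPKM in HO and 0.0236 to 0.0764 FPKM in WT. Their part in the Cyp4 differences was not tested. Macrophage markers (52.1 to 65.6 FPKM in HO, 64.2 to 104.5 FPKM in WT), endothelial markers (34.9 to 40.6 FPKM in HO, 37.0 to 46.6 FPKM in WT), stellate cell markers (12.3 to 22.1 FPKM in HO, 18.4 to 26.6 FPKM in WT) and neutrophil markers (2.45 to 7.46 FPKM in HO, 1.18 to 4.05 FPKM in WT) overlapped. Lymphocyte markers stayed at or under 1.87 FPKM. In bulk liver, fewer cells of a type and less RNA per cell cannot be told apart.

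Among the 4521 genes averaging at least 10 FPKM, those closest in profile over the 6 libraries were ranked by the root mean square difference of centred log2 values. To the mean profile of Cyp4a10, Cyp4a14 and Cyp4a31 the closest were Htatip2, a metastasis suppressor gene (difference 0.138), the stress transcription factor Atf5 (0.167) and the vesicle transport gene Bet1 (0.199). Htatip2 had 11.7, 14.6 and 12.5 FPKM in HO, against 27.0, 26.4 and 18.0 FPKM in WT. To the mean profile of Cyp4a12a and Cyp4a12b the closest were Mup12 (0.214) and Mup11 (0.224), which encode major urinary proteins, and the oxidative stress response gene Osgin1 (0.243). Mup12 had 3279, 2006 and 2059 FPKM in HO, against 826, 438 and 855 FPKM in WT.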

How the data were processed

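Per the labels' protocols, RNA was extracted from frozen liver with Trizol and made into directional Illumina libraries. FPKM for each gene in each library is as deposited by the authors. HISAT2, HTSeq, DESeq2, StringTie and mm10 appear in the submitters' processing notes; no source used here says which of them made the FPKM values, or whether strand was used. Low values were whole multiples of the step of 1 read (tolerance 0.02 reads) in 28.2% to 29.9% of cases, too few to recover counts, so no count model was fitted. Genes averaging at least 0.5 FPKM were kept, and limma 3.58.1 (R 4.3.3) was run on log2(FPKM + 0.5) (2 groups, no block, eBayes with a trend, two-sided, Benjamini-Hochberg over 13250 genes at 0.05), after being tested on simulated data. This scale understates the change of low genes. The 16 alternatives are given in the closing section. Array weights used statmod 1.5.0. Positions and transcripts came from GENCODE mouse release 21 (GRCm38, the assembly of mm10), and coding sequences were aligned with Biopython 1.88. Python 3.11.15 and matplotlib 3.10.9 were used. Shared windows were sought among the 10 members only. Besides the members, the text names up to 4 genes of each of 9 lists by smallest p, those past the threshold where counted, and 3 genes nearest in profile to each group of copies. The members and lists were chosen with earlier results of these data known.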

Additional observations from a re-analysis of the deposited data

How the results depend on the processing

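All 10 members but Cyp4f15 kept their sign under the 16 alternatives; Cyp4f15 was at -0.0219 with array weights, -0.0518 without HO replicate 1 and up to 0.12 without another library. Of the members, 4 passed with array weights (Cyp4a10, Cyp4a12a, Cyp4a12b and Cyp4a14), 1 with the replicate block and 0 to 2 when a library was left out. Replicate numbers did not pair the libraries: the deviations of same-numbered libraries correlated at 0.07, -0.03 and 0.01 over genes. Of all libraries, only WT replicate 1 correlated best with its own number in the other group. With the replicate block 10 genes were higher and 15 lower, and Cyp4a10 passed (limma adjusted p = 0.0494). The block left 0 omega-oxidation partners, 2 PPARA targets, 2 male-biased, 2 female-biased and 1 other P450 gene past the threshold. Genes higher and lower numbered 249 and 692 with array weights, 7 and 33 with no filter, 67 and 66 with median-of-ratios scaling, and 18 and 59 without a trend, and 23 were higher at a pseudocount of 0.1 FPKM; leaving out a library gave 2 to 91 higher and 4 to 171 lower. With array weights 6 omega-oxidation partners, 2 of PPARA and partners, 20 PPARA targets, 3 growth hormone, 18 male-biased, 10 female-biased, 16 acute phase and 4 other P450 genes passed. With no filter the counts were 1 omega-oxidation partner, 4 PPARA targets, 2 male-biased, 3 female-biased, 0 acute phase and 0 other P450 genes. Without a trend they were 1 omega-oxidation partner, 5 male-biased, 1 acute phase and 1 other P450 gene. Median-of-ratios scaling left 1 omega-oxidation partner, and robust eBayes gave 1 of PPARA and partners. Leaving out a library gave 0 to 5 omega-oxidation partners, 1 to 13 PPARA targets, 0 to 1 growth hormone, 0 to 15 male-biased, 0 to 9 female-biased, 0 to 16 acute phase and 0 to 4 other P450 genes. For these changes the cause was not tested. A gene of 2000 exonic bases at the filter would hold 19.1 to 24.6 reads, which limits what can be seen for genes as low as Cyp4f18.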
